A study of Mus musculus with 15 samples.

Results

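Cultures of mouse regulatory T (Treg) cells were set beside cultures of TH17 cells, both from wild-type mice and both given DMSO, the solvent used as vehicle. The comparison holds 3 Treg and 3 TH17 libraries out of 15 poly(A) RNA-seq libraries in the series, all harvested on day 5. Its genes are those with at least 1 TPM (a length-corrected measure of a transcript's share of its library) in at least 3 of these 6 libraries, which were 11771 of 55421 gene IDs. Of them, 10397 reached 1 TPM in all 6 libraries, 264 in the 3 Treg libraries alone and 206 in the 3 TH17 libraries alone. The last 2 sets had to differ in order to enter, and any tested gene under 1 TPM in every library of 1 group belongs to them. For such genes the lack of overlap was fixed by the filter. Of the 11771 genes, 10747 are protein-coding in GENCODE release M21.

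All cultures started from naive CD4 T cells sorted from spleen and lymph node as CD25-negative, CD62L-high and CD44-low cells. They were stimulated with plate-bound anti-CD3 at 2 µg/ml and with anti-CD28 at 1 µg/ml, and antibodies that block IFNγ and IL-4 were present at 1 µg/ml each. TH17 cultures received TGFβ at 2.5 ng/ml and IL-1β, IL-6 and IL-23 at 10 ng/ml each. Treg cultures received IL-2 at 200 U/ml and TGFβ at 0.5 ng/ml, with the protocol leaving room for another dose where one is named. A difference between the cell types therefore cannot be told apart from one between these cytokine mixes or TGFβ doses. The other 9 libraries, of cultures with the compound Srci1 or of STAT3-fl/fl CD4-cre TH17 cells, share the statistical model. The labels used here mention no sort at harvest, so each library holds a whole culture, and fewer cells of a type and less RNA per cell cannot be told apart.

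TH17 cells are helper cells that secrete IL-17 and act against extracellular bacteria and fungi at barriers. Their program runs from the IL-6, IL-21 and IL-23 receptors through the transcription factor STAT3 to the IL-17 genes. Treg cells restrain immune responses, depend on the transcription factor FOXP3 and on IL-2 signalling through STAT5, and can be induced from naive cells by TGFβ. Both fates share a need for TGFβ, and the inflammatory cytokines added to TH17 cultures divert cells from the Treg fate.

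Values are TPM, given as mean ± SD over 3 libraries a group or library by library in the order of the replicate numbers. Differences on the log2 scale are of log2(TPM + 1), Treg minus TH17, with their standard error, and understate changes of low genes. A gene was called at a limma p under 0.05 adjusted by Benjamini and Hochberg over all 11771 genes. Whether the 3 replicates of a group are separate animals or cultures is not said in the labels, and p-values thus cover no more than the spread among these libraries, which could be technical. Depth is unknown, since TPM sums to the same total in every library.

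The 6 libraries fell into their groups. Correlations, taken over genes, which are no independent replicates, were 0.9762 to 0.9871 within a group and 0.9206 to 0.9279 between groups. Principal component 1, with 75.2% of the variance, separated the cell types. Component 2, with 10.6%, spread the TH17 libraries, with replicate 1 (25.81) and replicate 3 (-28.44) at opposite ends and replicate 2 (6.59) between them. TH17 replicate 3 had the highest share of ribosomal protein transcripts, 30.4% against 26.5% and 28.1% in the other TH17 libraries and 24.9% to 25.2% in the Treg libraries. Counts below are given without it where they move by over 1.5 times. Of 10 genes that mark CD4 T cells, such as Cd3e and Cd4, each stood above 100 TPM in both groups, and Cd8a was under 1 TPM in both.

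The cell types differed in 5632 of 11771 genes (47.8%). Of all tested genes, 4091 (34.8%) were higher in Treg cultures and 1541 (13.1%) were lower. At least 2-fold differences in mean TPM were held by 1247 of the higher genes (10.6% of those tested) and 535 of the lower genes (4.55%). The tested genes include the 264 and 206 that entered through the Treg or TH17 libraries alone and had to differ. Their part was not taken out of these counts or of the counts of list members below. Not every such gene named below is marked as one. The median difference of all tested genes was 0.19 in log2 units, so list medians are given below relative to it. Counts of list members are to be read against the 34.8% higher and 13.1% lower of all tested genes. Scaling by the median of ratios takes out this shift and gave 2631 higher (22.4%) and 2731 lower genes (23.2%), so that 49.1% of calls were higher in place of 72.6%. It kept 4172 of the calls in their direction and turned 0. Without TH17 replicate 3 the counts were 3319 higher and 1593 lower. The groups did not overlap in 6482 genes (55.1%), the background for each statement of overlap below. Those 264 and 206 genes are among them by construction.

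**Figure D1:**
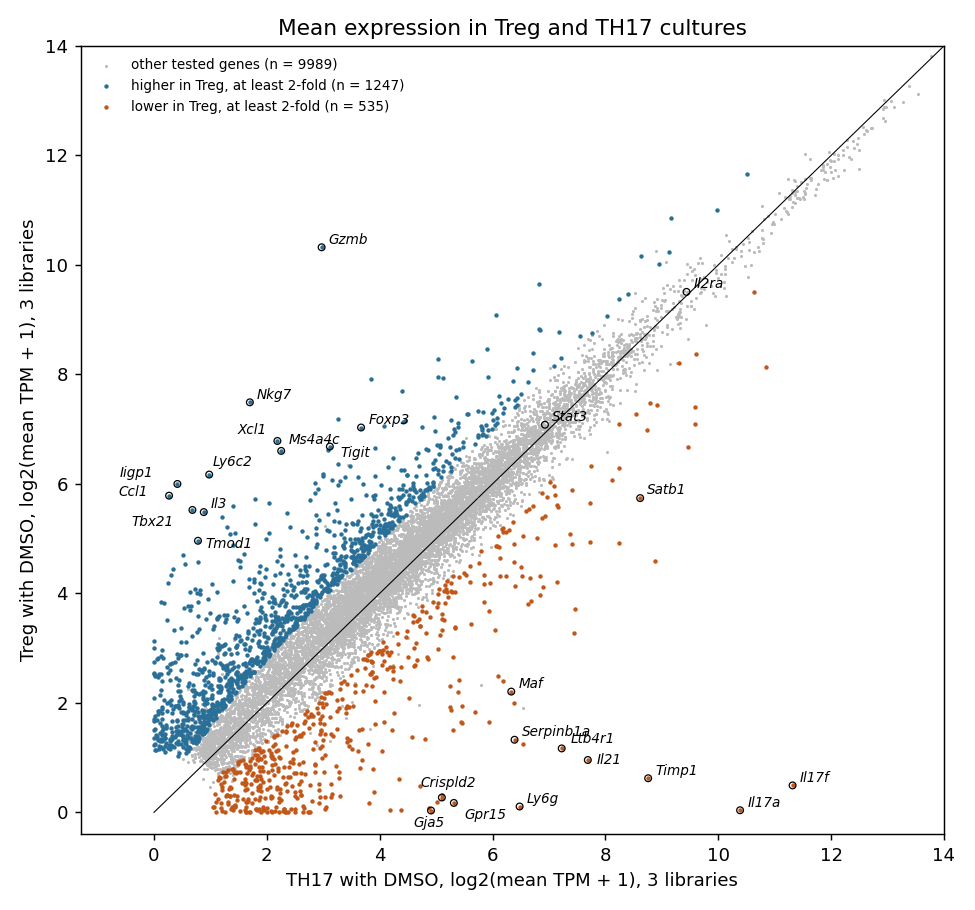
Mean expression of the 11771 tested genes in TH17 (x axis) and Treg cultures (y axis) with DMSO, as log2 of mean TPM + 1 over 3 libraries; the line marks equal levels. Blue points are the 1247 genes called and at least 2-fold higher in Treg cultures and orange points the 535 at least 2-fold lower, with Gzmb, Nkg7 and Iigp1 far above the line, Il17a and Il17f far below it and Stat3 and Il2ra close to it.

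The TH17 cytokine genes carried the deepest contrast. Il17a (ENSMUSG00000025929.4; GRCm38 chromosome 1, 20730905 to 20734496, plus strand) and its neighbour Il17f (ENSMUSG00000041872.9; chromosome 1, 20777146 to 20790617, minus strand) encode the cytokines that name the lineage. The 250 bases before their RefSeq start sites (GRCm38.p6) are shown on the strand of each gene, at chr1:20730655-20730904 on the plus strand for Il17a and chr1:20784271-20784520 on the minus strand for Il17f. The RefSeq start of Il17f lies inside the GENCODE span given above, with a RefSeq minus GENCODE start position of -6347 bases. Which start these cultures used was not tested.
Il17a: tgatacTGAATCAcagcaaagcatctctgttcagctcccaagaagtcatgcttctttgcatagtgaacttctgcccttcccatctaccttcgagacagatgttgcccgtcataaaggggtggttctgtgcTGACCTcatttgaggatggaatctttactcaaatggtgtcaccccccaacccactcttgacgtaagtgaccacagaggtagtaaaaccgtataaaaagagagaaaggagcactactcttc
Il17f: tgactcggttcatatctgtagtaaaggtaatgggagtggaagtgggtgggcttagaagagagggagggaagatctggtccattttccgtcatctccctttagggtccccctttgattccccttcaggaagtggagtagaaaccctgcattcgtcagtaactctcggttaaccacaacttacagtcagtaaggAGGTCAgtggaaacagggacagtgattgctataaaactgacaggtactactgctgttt
Capitals mark matches, on either strand, to the core element of ROR receptors (AGGTCA) and to the AP-1 site (TGANTCA), which do not overlap each other here. The Il17a window holds TGAATCA from 244 and TGACCT from 120 bases before the start, and the Il17f window holds AGGTCA from 58 bases before it. Over the 300-base RefSeq windows, which run 50 bases past the start, the ROR core was in 3 of the 7 TH17 cytokine genes with an entry (Il17a, Il17f and Ccl20), in 14.5% of 8810 tested genes with an entry and in 18.1% of all 27025 genes. A match is a description and not a measured binding site.

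Il17a stood at 1279.8, 1356 and 1378 TPM in the TH17 libraries and 0, 0.08 and 0 TPM in the Treg libraries. Its difference was -10.35 ± 0.12 on the log2 scale (limma adjusted p = 1.04e-16). The gene was among the abundant transcripts of TH17 cultures and was listed at 0 in 2 Treg libraries, so no ratio is given. Il17f stood at 2646, 2429 and 2579 TPM in the TH17 libraries and 0.25, 0.14 and 0.83 TPM in the Treg libraries (-10.86 ± 0.14; limma adjusted p = 4.33e-16). No Treg library came near a TH17 library for either gene. Both entered through the TH17 libraries alone, so the filter fixed the lack of overlap but not the size of the gap.

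Of 9 genes for TH17 cytokines and secreted products, all tested, 8 were lower in Treg cultures and 0 were higher, with a relative median of -4.61. Il17a, Il17f, Timp1, Il22 and Il10 were under 1 TPM in every Treg library and entered through the TH17 libraries alone. The filter thus fixed their direction and lack of overlap, and their part in the count of 8 was not taken out. Il21, whose product sustains TH17 cells and helps B cells, stood at 238, 209.6 and 168 TPM in the TH17 libraries and 0.86, 1.16 and 0.8 TPM in the Treg libraries (limma adjusted p = 1.14e-13). Timp1, an inhibitor of matrix metalloproteinases, stood at 399, 426 and 471 TPM in the TH17 libraries and 0.83, 0.38 and 0.41 TPM in the Treg libraries (limma adjusted p = 1.72e-12). Each Treg library held under 2 TPM of either. Il22, which acts on epithelium, held 5.25, 6.67 and 5.12 TPM in TH17 libraries and was listed at 0 in every Treg library. Ccl20, the ligand of CCR6, kept a clear level in Treg cultures, at 30.3, 29.5 and 25.9 TPM against 140.3, 129 and 142 TPM in TH17 libraries (4.8-fold lower, limma adjusted p = 5.23e-11). Il24 (82.7 ± 2.24 TPM in TH17 and 2.97 ± 0.896 TPM in Treg cultures) and Il10 (5.11 ± 0.363 TPM in TH17 and 0.24 ± 0.251 TPM in Treg cultures) were lower in Treg cultures as well. The IL-10 gene, often linked to regulatory cells, was thus higher in the TH17 cultures here. Csf2, encoding GM-CSF, was the member that did not pass, at 25 ± 1.54 TPM in TH17 and 26.3 ± 1.85 TPM in Treg cultures (limma adjusted p = 0.629).

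Among 11 receptor and surface genes of TH17 cells, 10 were tested, 6 were lower in Treg cultures and 1 was higher (relative median -1.99). Higher members numbered 2 without TH17 replicate 1 or 2. Ltb4r1, a leukotriene B4 receptor that attracts cells to inflammation, stood at 140.0, 153 and 153 TPM in the TH17 libraries and 1.25, 1.07 and 1.42 TPM in the Treg libraries (limma adjusted p = 1.14e-13). Il23r, the IL-23 receptor chain, stood at 9.69, 8.06 and 4.13 TPM in the TH17 libraries and 0.1, 0.13 and 0 TPM in the Treg libraries (limma adjusted p = 1.58e-07). The IL-1 receptor gene Il1r1 followed the same order at a lower level (3.19 ± 0.439 TPM in TH17 and 0.0233 ± 0.00577 TPM in Treg cultures). All Treg libraries lay below all TH17 libraries for these 3 receptors, which was fixed by the filter for Il23r and Il1r1. The mucosal homing receptor Ccr6 was 4.67-fold lower in Treg cultures (28.1 ± 8.0 TPM in TH17 and 6.01 ± 1.29 TPM in Treg cultures), and the membrane protein genes Tmem176a and Tmem176b were 3.32-fold and 3.87-fold lower. The member that was higher in Treg cultures was Il6st, the signalling chain shared by IL-6 family receptors, at 7.28, 7.21 and 3.37 TPM in the TH17 libraries and 11.2, 9.99 and 10.8 TPM in the Treg libraries (limma adjusted p = 0.00451). Il6ra, the IL-6 binding chain, did not pass (21.7 ± 6.06 TPM in TH17 and 17.1 ± 1.46 TPM in Treg cultures, adjusted p = 0.211), but was lower under median-of-ratios scaling (0.00974), quantile normalization (0.00535) and array weights (0.00377) and without TH17 replicate 3 (0.0107).

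Of 13 TH17 transcription factor genes, 9 were lower in Treg cultures and 0 were higher (relative median -0.80). Maf, which drives Il21 and Il10, stood at 81.9, 83.5 and 73.2 TPM in the TH17 libraries and 3.37, 3.51 and 3.96 TPM in the Treg libraries, a 22-fold difference (limma adjusted p = 6.48e-13). Ahr, the receptor for aryl hydrocarbons that supports Il22, stood at 5.77 ± 1.1 TPM in TH17 and 0.413 ± 0.116 TPM in Treg cultures, and Rora, a nuclear receptor of the TH17 program, at 6.78 ± 2.48 TPM in TH17 and 1.82 ± 0.501 TPM in Treg cultures. The AP-1 factor gene Batf was 2.7-fold lower (214 ± 3.7 TPM in TH17 and 79.2 ± 3.43 TPM in Treg cultures), and Hif1a, an oxygen-sensitive factor, 1.88-fold lower (265 ± 51.5 TPM in TH17 and 141 ± 10.04 TPM in Treg cultures). Irf4, Junb and Fosl2 passed with smaller differences, of 1.41-fold, 1.33-fold and 1.57-fold. Stat3 (chromosome 11, 100885098 to 100939540, minus strand), the factor at the centre of the study, did not pass the test. It stood at 129.7, 133 and 99.8 TPM in the TH17 libraries and 129.6, 134 and 139.9 TPM in the Treg libraries (0.16 ± 0.10; limma adjusted p = 0.194), and only TH17 replicate 3 lay clearly apart from the other 5 libraries.

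The Treg factor Foxp3 (ENSMUSG00000039521.13; chromosome X, 7573644 to 7595245, plus strand) was present in TH17 cultures and far higher in Treg cultures. It stood at 131, 131 and 127 TPM in the Treg libraries and 12.2, 13.6 and 9.37 TPM in the TH17 libraries, an 11.1-fold difference (3.37 ± 0.10; limma adjusted p = 4.81e-12). The Treg libraries lay close together, and no TH17 library overlapped them. Of 14 Treg transcription factor genes, 13 were tested, 7 were higher in Treg cultures and 1 was lower (relative median 0.56). Without TH17 replicate 3 the lower members numbered 3, as under median-of-ratios scaling. Rel, encoding the NF-κB subunit c-Rel, was 4.53-fold higher (7.6 ± 1.45 TPM in TH17 and 34.4 ± 0.527 TPM in Treg cultures). The nuclear receptor genes Nr4a1 and Nr4a3, which report T cell receptor (TCR) signals, were 1.89-fold and 4.99-fold higher. Bach2, a repressor of effector genes, stood at 20.2 ± 1.42 TPM in TH17 and 36.1 ± 8.4 TPM in Treg cultures, and Prdm1, encoding BLIMP-1, was low in both (0.253 ± 0.0473 TPM in TH17 and 2.51 ± 0.391 TPM in Treg cultures). Prdm1 entered through the Treg libraries alone, so the filter fixed its direction. Ikzf2, encoding Helios, which marks thymic more than induced Treg cells, did not enter the test, at 0.343 ± 0.172 TPM in TH17 and 1.42 ± 0.755 TPM in Treg cultures. Stat5a, through which IL-2 acts, did not pass (194 ± 41.1 TPM in TH17 and 165 ± 12.2 TPM in Treg cultures, adjusted p = 0.165), but was lower under median-of-ratios scaling (0.00143), quantile normalization (0.0325) and array weights (9.45e-04) and without TH17 replicate 3 (0.00119).

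The member lower in Treg cultures was Satb1, a chromatin organiser that FOXP3 is known to repress. Satb1 stood at 438, 415 and 321 TPM in the TH17 libraries and 54.7, 52.7 and 49.97 TPM in the Treg libraries, 7.46-fold lower in Treg cultures (-2.86 ± 0.10; limma adjusted p = 2.40e-11). No Treg library overlapped a TH17 library.

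Of 18 Treg surface and effector genes, 17 were tested, 11 were higher in Treg cultures and 3 were lower (relative median 0.79). Tigit, an inhibitory receptor, stood at 97.1, 109 and 99.3 TPM in the Treg libraries and 7.86, 7.41 and 7.75 TPM in the TH17 libraries, 13.3-fold higher (limma adjusted p = 1.44e-12). Izumo1r, encoding folate receptor 4, a surface marker of Treg cells, was 3.2-fold higher (334, 333 and 331 TPM in the Treg libraries and 95.9, 107 and 109 TPM in the TH17 libraries). Penk, the proenkephalin gene, stood at 13, 11 and 14.2 TPM in the Treg libraries and 0.69, 0.52 and 0.5 TPM in the TH17 libraries. These 3 genes were higher in every Treg library than in any TH17 library, which was fixed by the filter for Penk. Of the TNF receptor family, 3 members of this list rose from a high base, with Tnfrsf9 (4-1BB) 2.9-fold higher at 396 ± 35.2 TPM in TH17 and 1148 ± 19.5 TPM in Treg cultures, Tnfrsf18 (GITR) 2.2-fold higher at 300.2 ± 6.39 TPM in TH17 and 661 ± 7.96 TPM in Treg cultures and Tnfrsf4 (OX40) 1.37-fold higher. The Tnfrsf4 call ended under median-of-ratios scaling (adjusted p = 0.0979). Entpd1, encoding CD39, which degrades extracellular ATP, stood at 1.3 ± 0.281 TPM in TH17 and 5.48 ± 0.791 TPM in Treg cultures, and Nrp1 at 10.8 ± 3.02 TPM in TH17 and 29.3 ± 0.587 TPM in Treg cultures.

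Other textbook Treg genes did not follow. Il2ra, which encodes CD25, the alpha chain of the IL-2 receptor (chromosome 2, 11642807 to 11693193, plus strand), stood at 785, 720.0 and 572 TPM in the TH17 libraries and 728, 719.9 and 732 TPM in the Treg libraries (0.08 ± 0.10; limma adjusted p = 0.537). The Treg libraries lay inside the range of the TH17 libraries. Ctla4, an inhibitory receptor, was lower in Treg cultures (410.5 ± 56.9 TPM in TH17 and 324 ± 2.92 TPM in Treg cultures, limma adjusted p = 0.0152), as were Icos (196 ± 45.7 TPM in TH17 and 113 ± 9.23 TPM in Treg cultures, adjusted p = 0.00114) and Capg (815 ± 27.8 TPM in TH17 and 715 ± 16.2 TPM in Treg cultures, adjusted p = 0.0157). The Ctla4 call ended without TH17 replicate 1 (adjusted p = 0.0656), and the Capg call without TH17 replicate 3 (0.0544) or Treg replicate 2 (0.0541). Itgae, encoding CD103, was near 1 TPM or below in all 6 libraries and was not tested.

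**Figure D2:**
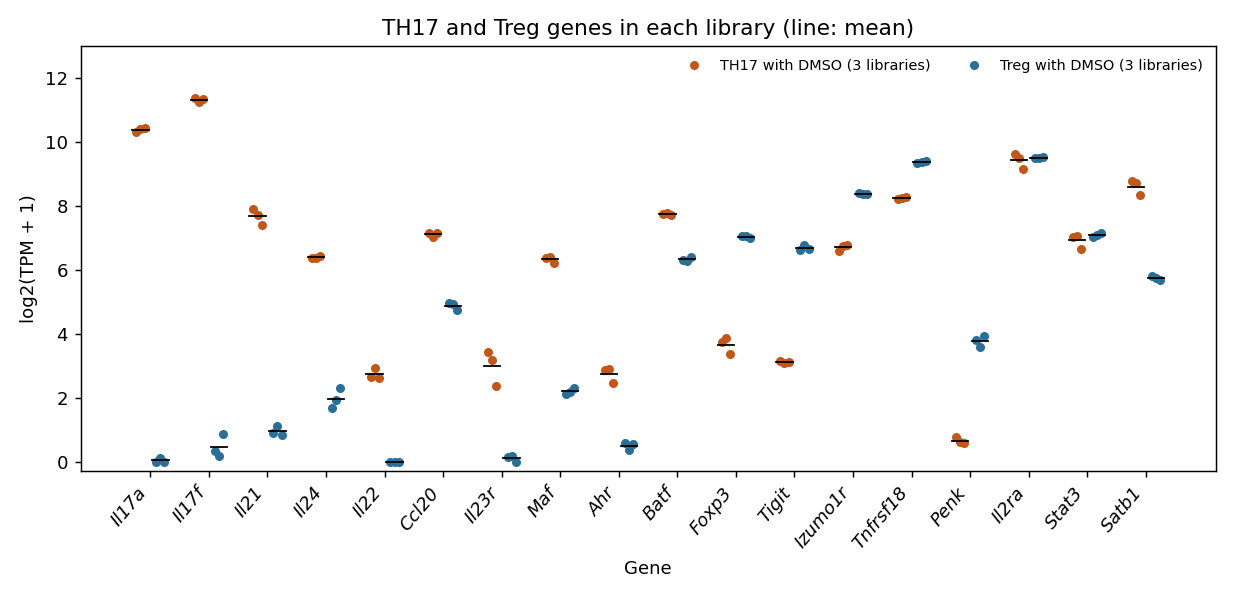
Log2(TPM + 1) of 18 TH17 and Treg genes (x axis) in each of 3 TH17 (orange) and 3 Treg libraries (blue) with DMSO; black lines are group means. Il17a and Il17f lie above 10 in TH17 and below 1 in Treg libraries, Foxp3, Tigit, Izumo1r and Penk lie higher in Treg libraries, and the libraries of both groups lie together for Il2ra and Stat3.

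Genes of the STAT3 pathway and target list were called lower in Treg cultures more often than all tested genes. Of 15 members, all tested, 5 were lower (33.3%, against 13.1% of all tested genes) and 3 were higher (20.0%, against 34.8%). The other 7 did not pass, and the relative median was -0.27. Under median-of-ratios scaling 10 were lower and 2 higher. Socs3, a feedback inhibitor induced by STAT3, stood at 78.6, 88.5 and 80.3 TPM in the TH17 libraries and 29.7, 27.4 and 30.2 TPM in the Treg libraries, 2.84-fold lower in Treg cultures (limma adjusted p = 7.94e-10). Bcl3, an atypical IκB protein, was 2.21-fold lower (135 ± 8.38 TPM in TH17 and 61.4 ± 4.09 TPM in Treg cultures), and Ier3 2.51-fold lower. Fos was higher in Treg cultures (5.84 ± 0.723 TPM in TH17 and 11.8 ± 0.997 TPM in Treg cultures).

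IL-2 was added to the Treg cultures, but genes of the IL-2 and STAT5 response were called lower there more often than all tested genes. Of 14 members, 4 were higher (28.6%, against 34.8% of all tested genes) and 5 lower (35.7%, against 13.1%). The relative median was -0.26, and 9 were lower under median-of-ratios scaling. Gzmb, described below, Ccnd2 and Dusp5 were higher, and so was Il2rb, the receptor chain that signals to STAT5 (250.3 ± 35.1 TPM in TH17 and 354 ± 11.2 TPM in Treg cultures). Of the feedback inhibitors, Cish did not pass (217 ± 13.5 TPM in TH17 and 199.9 ± 3.72 TPM in Treg cultures, limma adjusted p = 0.115) and Socs1 was lower (65.2 ± 11 TPM in TH17 and 41.1 ± 2.31 TPM in Treg cultures). Cish was lower under median-of-ratios scaling (adjusted p = 6.40e-04), quantile normalization (0.0198), rescaling that leaves out ribosomal and mitochondrial genes (0.00870) and array weights (0.00345), and without TH17 replicate 3 (0.0343). Tnfrsf8, encoding CD30, was the member with the deepest fall, at 65.9, 64.5 and 50.7 TPM in the TH17 libraries and 2.18, 1.87 and 2.39 TPM in the Treg libraries, 28.1-fold lower (limma adjusted p = 4.99e-12). Lta and Pim2 were 1.65-fold and 1.63-fold lower.

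TGFβ was in both media at different stated doses. Of 18 genes for its receptors, SMAD proteins and targets, 16 were tested, 7 were lower in Treg cultures and 4 were higher (relative median -0.15). Under median-of-ratios scaling 2 were higher. Smad7, the inhibitory SMAD that TGFβ induces, was 1.78-fold lower in Treg cultures (12.8 ± 3.53 TPM in TH17 and 7.18 ± 0.871 TPM in Treg cultures), and the co-repressor gene Ski 1.51-fold lower. Ldlrad4 (4.82 ± 0.631 TPM in TH17 and 2.03 ± 0.115 TPM in Treg cultures) and the ligand gene Tgfb3 (8.74 ± 1.64 TPM in TH17 and 2.73 ± 0.182 TPM in Treg cultures) were also lower. The receptor gene Tgfbr1 was higher (5.32 ± 1.51 TPM in TH17 and 9.45 ± 0.856 TPM in Treg cultures), and Tgfb1, the ligand gene that T cells chiefly express, was 1.26-fold higher, which did not pass under median-of-ratios scaling (adjusted p = 0.397).

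Genes induced by the TCR were mostly higher in Treg cultures, although both cultures had the same anti-CD3 and anti-CD28. Of 20 members, all tested, 16 were higher and 3 lower (relative median 1.05). Egr2, a factor that limits T cell activation, stood at 33.6, 33.5 and 35.1 TPM in the Treg libraries and 11.8, 12.4 and 10.6 TPM in the TH17 libraries, 2.94-fold higher (limma adjusted p = 9.44e-07). Nr4a3 stood at 132, 132 and 126 TPM in the Treg libraries and 27.8, 26.8 and 23.4 TPM in the TH17 libraries (limma adjusted p = 3.78e-09), and Nr4a2 was 6.57-fold higher. For each of these the groups did not overlap. Irf8, a factor better known from myeloid and B cells, was 6.04-fold higher (58.7 ± 5.14 TPM in TH17 and 354 ± 7.52 TPM in Treg cultures). Nfatc1, a calcium-dependent factor, and the feedback inhibitors Spry1 and Dusp6 were 2.49-fold, 2.32-fold and 2.59-fold higher. The 3 lower members were Junb and Irf4, given above, and Il2, the growth factor gene, at 34, 30.3 and 36 TPM in the TH17 libraries and 12.9, 10.7 and 10.3 TPM in the Treg libraries. The early activation marker Cd69 did not pass (88.1 ± 6.75 TPM in TH17 and 80.5 ± 6.82 TPM in Treg cultures, adjusted p = 0.356), and was lower under median-of-ratios scaling (0.0139).

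The Treg cultures also held transcripts known from cytotoxic and TH1 cells. Gzmb (ENSMUSG00000015437.5; chromosome 14, 56258838 to 56262260, minus strand) encodes granzyme B, a protease of cytotoxic granules that IL-2 is known to induce. It stood at 1244, 1290.1 and 1302 TPM in the Treg libraries and 6.51, 6.94 and 7.07 TPM in the TH17 libraries, 187-fold higher (7.35 ± 0.06; limma adjusted p = 7.35e-18). It was among the abundant transcripts of each Treg library. Of 15 cytotoxic granule genes, 9 were tested, 6 were higher and 3 lower (relative median 2.79). Prf1, encoding perforin, which opens target membranes, stood at 17.2, 14.8 and 15.3 TPM in the Treg libraries and 0.52, 0.66 and 1.08 TPM in the TH17 libraries (limma adjusted p = 2.91e-10). Nkg7, a granule protein, stood at 169.6, 179 and 188 TPM in the Treg libraries and 1.76, 2.34 and 2.64 TPM in the TH17 libraries, 79.6-fold higher (limma adjusted p = 4.99e-12). Gzmc stood at 0.0867 ± 0.15 TPM in TH17 and 13.4 ± 1.26 TPM in Treg cultures, and entered through the Treg libraries alone. Serpinb9, the inhibitor that protects cells from granzyme B, was 11.5-fold higher (1.87 ± 0.372 TPM in TH17 and 21.5 ± 0.554 TPM in Treg cultures). The lower members were Ctsw, encoding cathepsin W (140.4 ± 4.91 TPM in TH17 and 17.6 ± 2.54 TPM in Treg cultures), Srgn, the proteoglycan of granules (1481 ± 81.3 TPM in TH17 and 882 ± 63.5 TPM in Treg cultures), and Gzma (2.15 ± 0.971 TPM in TH17 and 0.343 ± 0.361 TPM in Treg cultures). Granzyme genes lie in clusters of close copies, so reads of the low members are uncertain.

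Of 17 TH1 program genes, all tested, 13 were higher in Treg cultures and 2 lower (relative median 1.82). Tbx21, encoding T-bet, the factor that defines TH1 cells, stood at 45.6, 46.4 and 43.1 TPM in the Treg libraries and 0.48, 0.6 and 0.73 TPM in the TH17 libraries, 74.6-fold higher (limma adjusted p = 1.44e-12). Eomes, its relative in CD8 and NK cells, was 13.2-fold higher (1.16 ± 0.279 TPM in TH17 and 15.3 ± 0.41 TPM in Treg cultures). Ifng, the TH1 cytokine, whose protein was blocked by antibody in both media, stood at 25, 26.6 and 23.1 TPM in the Treg libraries and 0.25, 0.6 and 0.42 TPM in the TH17 libraries (limma adjusted p = 1.39e-07). Every Treg library exceeded every TH17 library for these 3 genes. Tbx21 and Ifng were under 1 TPM in every TH17 library, so the filter fixed this for them. The chemokine genes Ccl3, Ccl4 and Ccl5, which attract T cells and monocytes, were 17.9-fold, 7.76-fold and 6.67-fold higher, with Ccl4 at 31.8 ± 3.42 TPM in TH17 and 247 ± 17.3 TPM in Treg cultures. Xcl1, which attracts cross-presenting dendritic cells, was 30.7-fold higher (3.55 ± 1.47 TPM in TH17 and 109 ± 5.06 TPM in Treg cultures). Cxcr6 and the homeobox gene Hlx were the lower members (2.27 ± 1.15 TPM in TH17 and 0.433 ± 0.102 TPM in Treg cultures, and 2.9 ± 0.768 TPM in TH17 and 0.207 ± 0.15 TPM in Treg cultures), and Tnf did not pass (44.4 ± 2.35 TPM in TH17 and 41.7 ± 1.95 TPM in Treg cultures, adjusted p = 0.364; lower under median-of-ratios scaling, 0.00290, and quantile normalization, 0.00633).

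Interferon-stimulated genes were higher in Treg cultures as a group. Of 18 members, 13 were tested, 12 were higher and 0 lower (relative median 1.56), and without TH17 replicate 3 all 13 tested were higher. The other 5 (Ifit1, Ifit3, Ifi44, Oas1a and Rsad2) did not enter the test and had Treg means of at most 1.11 ± 0.286 TPM. Irf7, an amplifier of type I interferon, was 6.23-fold higher (2.42 ± 0.485 TPM in TH17 and 15.1 ± 1.11 TPM in Treg cultures). Isg20, an exonuclease, was 9.99-fold higher (6.98 ± 1.05 TPM in TH17 and 69.7 ± 4.04 TPM in Treg cultures), and Ifi27l2a, a small inducible protein, 3.28-fold higher (569 ± 70.8 TPM in TH17 and 1864 ± 69.6 TPM in Treg cultures). Isg15, a ubiquitin-like protein, stood at 17.4, 17.3 and 19.5 TPM in the Treg libraries and 0.81, 4.7 and 1.11 TPM in the TH17 libraries (8.19-fold higher, limma adjusted p = 8.12e-06), and Gbp2, a guanylate-binding protein, at 693, 725 and 703 TPM in the Treg libraries and 361, 340.1 and 307 TPM in the TH17 libraries (2.1-fold higher, limma adjusted p = 9.59e-09). The member that did not pass was Bst2 (137 ± 29.8 TPM in TH17 and 167 ± 3.55 TPM in Treg cultures, adjusted p = 0.127).

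The 250 bases before the starts of Isg15 and Gbp2 are shown as examples of members whose window holds an interferon-stimulated response element, the site bound by interferon-activated factors. It was searched on both strands as GAAA, any 2 bases and GAAA, and the examples were chosen after their values were seen. They lie at chr4:156200819-156201068 on the minus strand and chr3:142620413-142620662 on the plus strand (RefSeq, GRCm38.p6).
Isg15: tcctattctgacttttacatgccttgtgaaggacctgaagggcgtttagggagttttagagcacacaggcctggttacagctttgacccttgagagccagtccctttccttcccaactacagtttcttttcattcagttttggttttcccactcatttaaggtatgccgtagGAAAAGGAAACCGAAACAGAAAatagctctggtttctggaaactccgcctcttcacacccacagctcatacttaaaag
Gbp2: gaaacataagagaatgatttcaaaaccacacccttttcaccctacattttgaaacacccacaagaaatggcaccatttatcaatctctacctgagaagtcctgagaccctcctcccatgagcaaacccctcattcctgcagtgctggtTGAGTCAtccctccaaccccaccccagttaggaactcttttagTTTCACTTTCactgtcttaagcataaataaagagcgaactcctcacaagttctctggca
Capitals mark matches to that element and, in Gbp2, also to the AP-1 site. Isg15 holds 3 overlapping copies, GAAAAGGAAA, GAAACCGAAA and GAAACAGAAA, the first beginning 78 bases before the start. Gbp2 holds TTTCACTTTC, the element on the other strand, from 59 bases before the start, and TGAGTCA from 102 bases before it. Over the 300-base windows, the element was present in 4 of 8 tested list members with a RefSeq entry (Bst2, Gbp2, Isg15 and Stat2) and in 4.0% of all 27025 genes. It was present in 83 of 891 genes at least 2-fold higher in Treg cultures (9.3%), 16 of 397 at least 2-fold lower (4.0%) and 3.9% of tested genes with an entry. The STAT palindrome TTCNNNGAA was in 10.4% of the higher, 7.8% of the lower and 8.3% of the tested genes, and the AP-1 site in 9.2%, 10.3% and 5.8%. The ROR core was in 16.8%, 18.9% and 14.5%. These shares are descriptions, with no test.

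**Figure D3:**
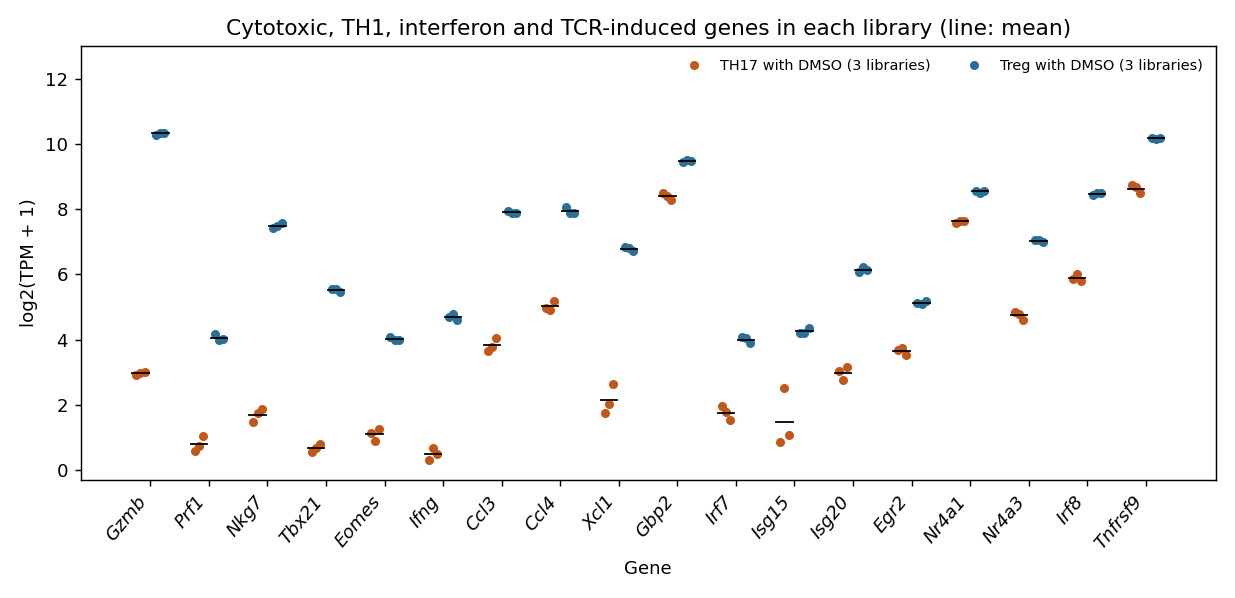
Log2(TPM + 1) of 18 cytotoxic, TH1, interferon-stimulated and TCR-induced genes (x axis) in each of 3 TH17 (orange) and 3 Treg libraries (blue) with DMSO; black lines are group means. Each of the 18 genes is higher in every Treg library than in any TH17 library, with Gzmb at 6.51 to 7.07 TPM in TH17 and 1244 to 1302 TPM in Treg libraries. Tbx21 and Ifng entered through the Treg libraries alone and had to be higher.

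The TH2 genes moved both ways, and more TFH genes were lower than higher in Treg cultures. Of 13 TH2 genes, 10 were tested, 5 were higher and 4 lower in Treg cultures (relative median 0.05). Gata3, the TH2 factor that Treg cells also use, was 3.36-fold higher (4.36 ± 0.642 TPM in TH17 and 14.7 ± 0.537 TPM in Treg cultures). Il3, a growth factor for myeloid and mast cells, stood at 39.9, 46.8 and 44.6 TPM in the Treg libraries and 0.25, 1.5 and 0.78 TPM in the TH17 libraries (51.9-fold higher, limma adjusted p = 3.92e-09). Il13 was higher as well (1.34 ± 0.502 TPM in TH17 and 5.25 ± 1.05 TPM in Treg cultures), whereas Il9 (6.6 ± 2.17 TPM in TH17 and 0.44 ± 0.762 TPM in Treg cultures) and the receptor gene Il4ra (222 ± 30.9 TPM in TH17 and 134 ± 3.48 TPM in Treg cultures) were lower. Of 11 TFH genes, 10 were tested, 6 were lower and 2 higher (relative median -0.60). Tox2 (6.68 ± 1.27 TPM in TH17 and 0.213 ± 0.13 TPM in Treg cultures) and Slamf6 (39.5 ± 1.85 TPM in TH17 and 15.2 ± 1.84 TPM in Treg cultures) were lower, next to Il21. The higher members were Pdcd1, encoding PD-1 (3.16-fold), and Tox, linked to T cell exhaustion (3.8 ± 0.717 TPM in TH17 and 22 ± 0.827 TPM in Treg cultures).

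Receptors that guide migration divided the cell types. Of 17 chemokine receptor genes, 11 were tested, 7 were lower in Treg cultures and 3 were higher (relative median -1.33). Cxcr4, which holds cells in bone marrow and lymphoid stroma, stood at 121, 118 and 100.2 TPM in the TH17 libraries and 19.4, 16.8 and 20.5 TPM in the Treg libraries, 5.99-fold lower in Treg cultures (limma adjusted p = 7.23e-10). The inflammatory receptor gene Ccr2 (8.87 ± 2.71 TPM in TH17 and 0.23 ± 0.175 TPM in Treg cultures) was lower with Ccr6. Ccr7, the receptor for entry to lymph nodes, went the other way, at 718, 709.8 and 733 TPM in the Treg libraries and 382, 363 and 363 TPM in the TH17 libraries (1.95-fold higher, limma adjusted p = 3.84e-09). Ccr8, known from tissue Treg cells, was 1.65-fold higher (38.2 ± 4.56 TPM in TH17 and 62.9 ± 1.89 TPM in Treg cultures).

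Of 16 naive, memory and recirculation genes, 8 were higher and 5 lower in Treg cultures (relative median 0.10). Klf2 and Klf3, factors of quiescent and circulating T cells, were 2.06-fold and 7.31-fold higher, and the adhesion receptor gene Cd44 was 2.27-fold higher. Tcf7, encoding the stem-like factor TCF-1, was 2.23-fold lower (302 ± 23.1 TPM in TH17 and 135 ± 3.0 TPM in Treg cultures). Id2, an inhibitor of E proteins, was 3.89-fold lower (302 ± 6.34 TPM in TH17 and 77.5 ± 2.33 TPM in Treg cultures). The neighbours Ly6c1 and Ly6c2 moved in opposite directions, with Ly6c1 at 176, 167 and 176 TPM in the TH17 libraries and 7.77, 10.5 and 7.58 TPM in the Treg libraries and Ly6c2 at 76.6, 62.7 and 73.7 TPM in the Treg libraries and 0.91, 0.37 and 1.63 TPM in the TH17 libraries. Their sequences are nearly the same, so how reads were split between them is uncertain.

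Of 17 integrin genes, 11 were tested, 6 were higher and 3 lower (relative median 0.11). Itgb3, whose product pairs with the αv chain, stood at 36.2, 36.4 and 35.4 TPM in the Treg libraries and 1.77, 1.34 and 1.23 TPM in the TH17 libraries, 24.9-fold higher (limma adjusted p = 3.35e-12), and Itgav, the αv gene, was 2.45-fold higher. Itga4 and Itga6 were 4.66-fold and 2.7-fold higher. The lower members numbered 1 without TH17 replicate 2 or without Treg replicate 3.

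Of 17 checkpoint and co-stimulatory receptor genes, all tested, 12 were higher and 2 (Ctla4 and Icos) lower in Treg cultures (relative median 0.77). Lower members numbered 1 without TH17 replicate 1. Pdcd1 stood at 77.4, 80.8 and 79.1 TPM in the Treg libraries and 27.6, 25.4 and 22.2 TPM in the TH17 libraries (limma adjusted p = 1.39e-09). Cd27, a TNF family receptor, was 2.26-fold higher (55.4 ± 1.48 TPM in TH17 and 125 ± 4.13 TPM in Treg cultures), and Cd160 (1.2 ± 0.179 TPM in TH17 and 10.9 ± 1.87 TPM in Treg cultures) and Cd83 (0.453 ± 0.0513 TPM in TH17 and 12.2 ± 0.698 TPM in Treg cultures) were higher from low levels. Cd83 was under 1 TPM in every TH17 library and so entered through the Treg libraries alone. Lag3, which binds MHC class II, was 1.56-fold higher.

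Genes of cell division were higher in Treg cultures. Of 20 DNA replication genes, 17 were higher and 0 lower (relative median 0.58; 1 lower under 3 other scalings and with array weights), and of 20 mitosis and spindle genes, 19 were higher and 0 lower (relative median 0.78). Rrm2, a subunit of ribonucleotide reductase, stood at 93.9 ± 6.18 TPM in TH17 and 171 ± 2.77 TPM in Treg cultures (1.82-fold), and Tk1, thymidine kinase, at 50.8 ± 1.47 TPM in TH17 and 105 ± 6.12 TPM in Treg cultures (2.06-fold). Ccnb2, a mitotic cyclin, stood at 124, 117 and 113 TPM in the Treg libraries and 51.4, 58.4 and 56.3 TPM in the TH17 libraries (limma adjusted p = 7.36e-09), and Aurkb, a mitotic kinase, was 2.04-fold higher. Mki67, encoding the proliferation marker Ki-67, was 1.67-fold higher (limma adjusted p = 0.0127), and did not pass without TH17 replicate 3 (adjusted p = 0.0582). The groups did not overlap for Rrm2, Tk1, Ccnb2 or Aurkb, and 5 of the replication and 9 of the mitosis genes differed by at least 2-fold.

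Metabolic genes showed smaller differences. Of 18 glycolysis and lactate genes, 8 were lower in Treg cultures and 3 higher (relative median -0.38), and 15 were lower and 1 higher under median-of-ratios scaling. Higher members also numbered 1 without Treg replicate 2. Tpi1, a glycolytic isomerase, was 1.32-fold lower (1092 ± 18 TPM in TH17 and 826 ± 29.5 TPM in Treg cultures), and the glucose transporter gene Slc2a1 1.35-fold lower. Of 18 hypoxia genes, 17 were tested, 7 were lower and 1 higher (relative median -0.37), and 11 were lower under quantile normalization. Egln3, a hydroxylase that HIF-1 induces, stood at 389.8, 374 and 346 TPM in the TH17 libraries and 156, 153 and 155 TPM in the Treg libraries, 2.39-fold lower (limma adjusted p = 6.61e-09). Of 24 nuclear genes for oxidative phosphorylation, 10 were higher (41.7%, near the 34.8% of all tested genes) and 1 lower (relative median 0.01). Under median-of-ratios scaling 1 was higher and 1 lower. The lower call ended without TH17 replicate 3, Treg replicate 2 or Treg replicate 3. The 13 mitochondrially encoded genes gave 0 higher and 2 lower calls, and the lower ones numbered 0 without TH17 replicate 1, 1 without Treg replicate 1 or 2 and 7 under median-of-ratios scaling. Among 15 unfolded protein and heat shock genes, 4 were lower and 3 higher (relative median -0.25), and 9 were lower under median-of-ratios scaling.

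Biosynthetic genes leaned to the Treg side. Of 19 amino acid stress genes, targets of ATF4 that make and import amino acids, 18 were tested, 16 were higher and 1 lower (relative median 0.53). There were 12 higher and 2 lower under median-of-ratios scaling, 2 lower under quantile normalization and 0 lower without TH17 replicate 2. Phgdh, the first enzyme of serine synthesis, stood at 426, 463 and 422 TPM in the Treg libraries and 138, 149 and 142 TPM in the TH17 libraries, 3.05-fold higher (limma adjusted p = 4.37e-11). Psat1 and Mthfd2, of the serine and folate pathways, were 2.01-fold and 2.13-fold higher, and Cth, which makes cysteine, rose from a low level (2.83 ± 0.868 TPM in TH17 and 15 ± 1.12 TPM in Treg cultures). Of 22 cholesterol synthesis genes, 17 were higher and 1 lower (relative median 0.22), and 11 were higher under median-of-ratios scaling. Hmgcs1 and Cyp51, an early and a late enzyme, were 2.34-fold and 1.68-fold higher. Of 13 fatty acid synthesis genes, 12 were tested, 8 were higher and 1 lower (relative median 0.37). Under median-of-ratios scaling 6 were higher and 3 lower, and lower members numbered 2 under quantile normalization, with the rescaling that leaves out ribosomal and mitochondrial genes, with array weights and without TH17 replicate 1. Elovl5, an elongase, was 2.44-fold higher (39.7 ± 5.11 TPM in TH17 and 96.7 ± 2.09 TPM in Treg cultures).

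Kinases of the Src family, such as FYN in T cells, relay the TCR signal. Of 15 genes for these kinases and their regulators, 10 were tested, 7 were higher in Treg cultures and 0 lower (relative median 0.53). Src itself (chromosome 2, 157418444 to 157471862, plus strand) was near the filter, at 0.87, 1.39 and 0.73 TPM in the TH17 libraries and 0.84, 1.36 and 1.34 TPM in the Treg libraries, and did not pass (0.13 ± 0.16; limma adjusted p = 0.534). Fyn was 1.61-fold higher (89.6 ± 8.98 TPM in TH17 and 144 ± 5.29 TPM in Treg cultures). The negative regulators Ptpn6, encoding the phosphatase SHP-1 (1.8-fold), and Cblb, a ubiquitin ligase (29.7 ± 6.59 TPM in TH17 and 82.3 ± 2.06 TPM in Treg cultures), were higher too. Of 13 NF-κB genes, 5 were higher (38.5%, near the 34.8% of all tested genes) and 3 lower (23.1%, against 13.1%). The relative median was -0.16, with 6 lower under median-of-ratios scaling. Of 13 apoptosis genes, 7 were higher and 1 (Bax) lower (relative median 0.22), and the lower members numbered 4 under median-of-ratios scaling and 2 without TH17 replicate 3. Fasl, the death ligand, stood at 16.7, 17.5 and 16.6 TPM in the Treg libraries and 0.83, 1.2 and 1.09 TPM in the TH17 libraries (limma adjusted p = 1.58e-09), and Bcl2l1, encoding BCL-xL, was 1.93-fold higher. Bcl2a1b was 3.34-fold higher, a value made uncertain by its close copies. Of 6 adenosine genes, 2 were higher (33.3%) and 1 lower (16.7%), near the shares of all tested genes.

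**Figure D4:**
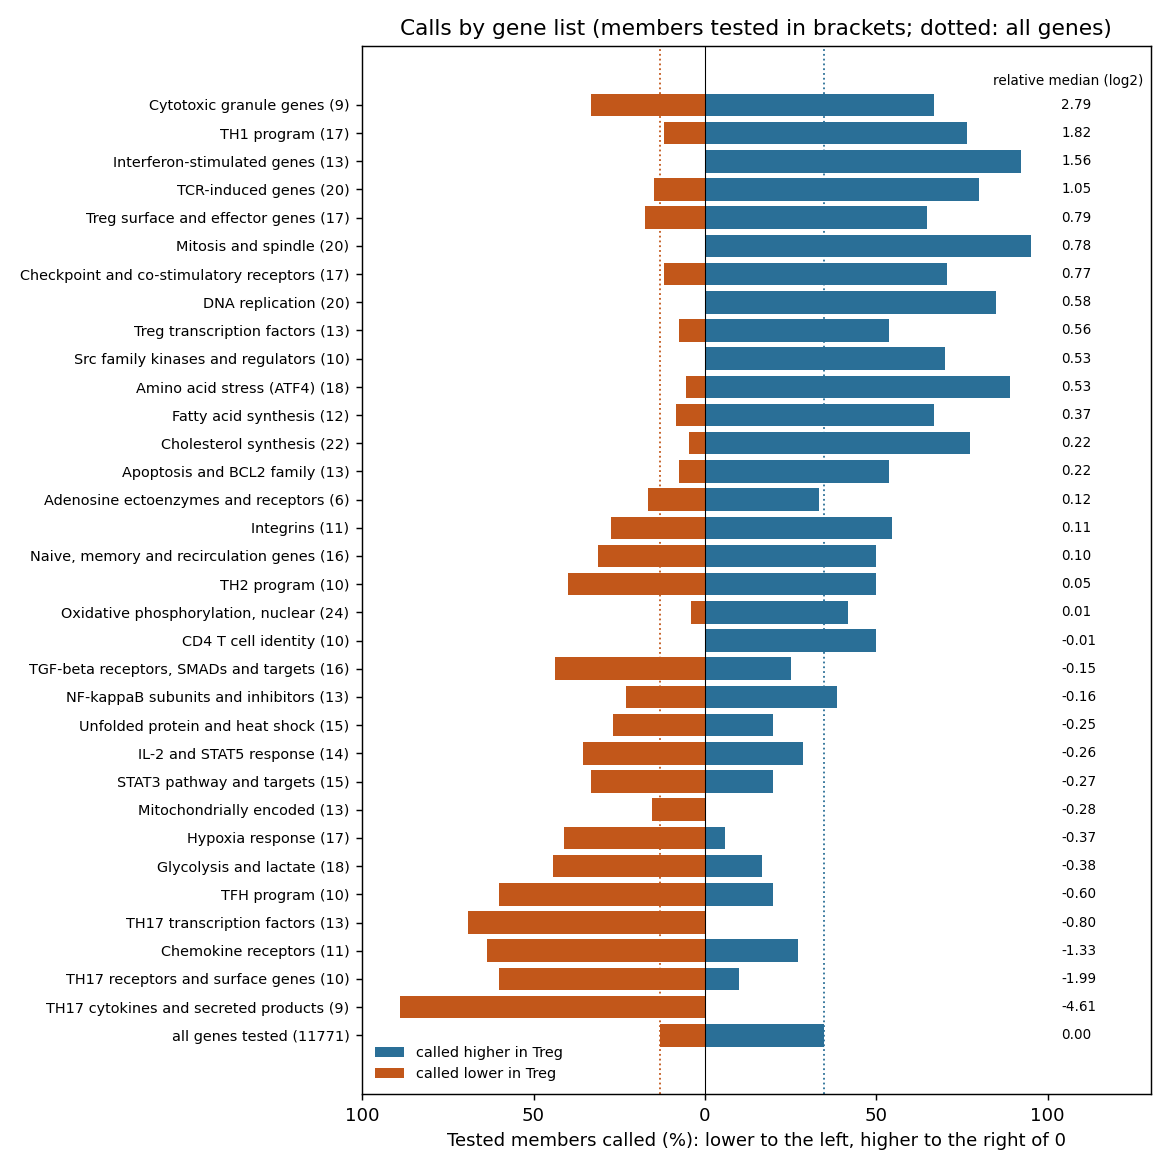
Share of the tested members of each gene list (number in brackets) that were called higher (blue, right) or lower (orange, left) in Treg than in TH17 cultures, with the median log2 difference relative to all genes on the right; dotted lines mark the shares of all tested genes, 34.8% and 13.1%. Lists are ordered by that median; calls of higher genes reach 95.0% in the mitosis and 92.3% in the interferon list, and calls of lower genes 88.9% in the TH17 cytokine list.

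Markers of other cell types were looked for beside these groups. The B cell list summed to 116 to 120 TPM in TH17 and 163 to 168 TPM in Treg libraries, almost all of it Ighm (114 ± 2.67 TPM in TH17 and 161 ± 1.57 TPM in Treg cultures), while Cd79a and Cd79b were under 1 TPM on average in both groups. Of its 10 members, 3 were tested, with Ighm and Ighd (0.87 ± 0.251 TPM in TH17 and 2.1 ± 0.564 TPM in Treg cultures) higher and Ebf1 (2.6 ± 0.541 TPM in TH17 and 0.387 ± 0.264 TPM in Treg cultures) lower in Treg cultures. The Ighd call ended with no filter on low values (adjusted p = 0.0530) and without TH17 replicate 2 (0.0801) or 3 (0.0541) or Treg replicate 1 (0.0994). The myeloid list of 13 genes summed to 106 to 124 and 157 to 164 TPM, and of 4 tested, 2 were higher and 1 lower. Cd74 (38.4 ± 4.99 TPM in TH17 and 118 ± 1.18 TPM in Treg cultures) and H2-Aa (0.84 ± 0.173 TPM in TH17 and 2.03 ± 0.475 TPM in Treg cultures) were higher and H2-Ab1 (71.5 ± 6.04 TPM in TH17 and 35.6 ± 2.12 TPM in Treg cultures) lower, and the macrophage marker Cd68 did not pass (4.51 ± 1.19 TPM in TH17 and 3.59 ± 0.268 TPM in Treg cultures, adjusted p = 0.246; lower under median-of-ratios scaling, 0.0266, and quantile normalization, 0.00787). S100a8, S100a9 and Tyrobp were at 0 in all 6 libraries, and Lyz2 and Csf1r did not exceed 0.02 TPM on average. Of 10 CD8 T and NK cell markers, which summed to 53.6 to 56.2 and 40.5 to 42.9 TPM, 6 were tested, 3 were higher and 3 lower. The higher members were Prf1 and Eomes, given above and also members of the cytotoxic and TH1 lists, and the NK receptor gene Klrk1 (0.727 ± 0.15 TPM in TH17 and 2.55 ± 1.26 TPM in Treg cultures). Klra8 and Ncr1 were at 0 in all 6 libraries, and Cd8a averaged 0.24 ± 0.0889 TPM in Treg cultures. Gzma was lower, as given above. Klrk1 was under 1 TPM in every TH17 library, and Ebf1 and Gzma in every Treg library, so the filter fixed the direction of these 3. Klrd1, a subunit of NK receptors, was lower in Treg cultures, at 44.8, 41.1 and 42.5 TPM in the TH17 libraries and 1.86, 2.55 and 4.19 TPM in the Treg libraries, and Cd8b1 was 7.23 ± 0.597 TPM in TH17 and 4.33 ± 0.435 TPM in Treg cultures.

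The list of 8 γδ T cell markers summed to at most 6.93 TPM in TH17 and 24.6 to 30.1 TPM in Treg libraries, and its 3 tested members were higher in Treg cultures, 2 of them at least 2-fold. Tcrg-C2 was 0.937 ± 0.272 TPM in TH17 and 14 ± 2.5 TPM in Treg cultures and Tcrg-C4 0.187 ± 0.249 TPM in TH17 and 4.82 ± 0.563 TPM in Treg cultures. Tcrg-C1 was 4.58 ± 0.857 TPM in TH17 and 7.11 ± 0.558 TPM in Treg cultures (limma adjusted p = 0.0492) and did not pass under 10 of 15 alternatives, among them each library left out except TH17 replicate 1, while Trdc, the δ chain constant gene, averaged 0.48 ± 0.0624 against 0.517 ± 0.0666 TPM. Of the stromal list, Lum, an extracellular matrix gene, stood at 7.96, 6.96 and 6.55 TPM in the TH17 libraries and 0, 0.1 and 0.04 TPM in the Treg libraries, and Dcn, another matrix gene, which was not tested, at 0.53, 0.41 and 0.3 TPM in the TH17 libraries and 0, 0 and 0 TPM in the Treg libraries. Col1a1 stood at 0.107 ± 0.0404 against 0.1 ± 0.02 TPM and Col3a1 at 0 in all 6 libraries. Pecam1, which lymphocytes also express, was higher in Treg cultures (32.5 ± 3.17 TPM in TH17 and 63.4 ± 0.632 TPM in Treg cultures). Of 7 red blood cell markers, which summed to 0.260 to 1.27 TPM in TH17 and 7.31 to 13.8 TPM in Treg libraries, the 2 tested were higher in Treg cultures. Hbb-bt, a globin gene, was listed at 0 in every TH17 library and at 6.35, 6.02 and 11 TPM in Treg libraries, and Hba-a1, which has a close copy, was 0.323 ± 0.56 TPM in TH17 and 2.17 ± 1.1 TPM in Treg cultures (limma adjusted p = 0.00256). Alas2 was at 0 in all 6. Mast cell markers other than Kit, which was lower in Treg cultures (2.47 ± 0.459 TPM in TH17 and 0.513 ± 0.32 TPM in Treg cultures), were at 0. Tcrg-C4, Hbb-bt and Hba-a1 were under 1 TPM in every TH17 library, and Lum and Kit in every Treg library. They entered through the libraries of the other group alone, so the filter fixed their direction. The part of other cells in the results was not tested.

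Beyond the genes already given, the 10 largest rises on the log2 scale included Iigp1, an interferon-inducible GTPase, at 61.7, 60.5 and 66.6 TPM in the Treg libraries and 0.45, 0.31 and 0.24 TPM in the TH17 libraries (5.59 ± 0.14; limma adjusted p = 1.10e-12). Ccl1, the ligand of CCR8, stood at 52.2, 54.2 and 56 TPM in the Treg libraries and 0.41, 0.2 and 0 TPM in the TH17 libraries, and Ms4a4c, a tetraspanning membrane protein, at 87.9, 95.3 and 105 TPM in the Treg libraries and 3.08, 3.64 and 4.59 TPM in the TH17 libraries. Tmod1, which caps actin filaments, was higher at 0.717 ± 1.07 TPM in TH17 and 30.1 ± 8.0 TPM in Treg cultures. Both Iigp1 and Ccl1 were under 1 TPM in every TH17 library and so entered through the Treg libraries alone. The 10 largest falls included Ly6g, better known as a neutrophil marker, at 96.5, 88 and 80.3 TPM in the TH17 libraries and 0.11, 0 and 0.12 TPM in the Treg libraries (-6.37 ± 0.12; limma adjusted p = 4.39e-14). Reads of Ly6 family copies are uncertain. Gpr15, a receptor for homing to the large intestine, stood at 40.4, 39.7 and 36.2 TPM in the TH17 libraries and 0.21, 0.11 and 0.06 TPM in the Treg libraries. Serpinb1a, an inhibitor of neutrophil proteases, stood at 91.4, 88 and 69.2 TPM in the TH17 libraries and 1.63, 2.13 and 0.76 TPM in the Treg libraries. The gap junction gene Gja5 (29.1 ± 7.56 TPM in TH17 and 0.0233 ± 0.0252 TPM in Treg cultures) and Crispld2 (33.3 ± 7.49 TPM in TH17 and 0.207 ± 0.0603 TPM in Treg cultures) completed the list. Ly6g, Gpr15, Gja5 and Crispld2 were under 1 TPM in every Treg library. They entered through the TH17 libraries alone, so the filter fixed their lack of overlap but not the size of the gap.

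The same contrast can be read in 6 further libraries, Treg and TH17 cultures that received Srci1 from 24 h after plating, which share no library with the DMSO groups. There 2503 genes were higher (21.3%) and 1921 lower (16.3%) in Treg cultures. Of the 1247 genes at least 2-fold higher with DMSO, 814 (65.3%) were called higher with Srci1 and 22 were called lower. Of the 535 at least 2-fold lower, 449 (83.9%) were called lower and 7 higher. The size of the difference itself changed with Srci1 in 1794 genes (15.2%) by the interaction term, among them 490 of the 1247 and 174 of the 535. Both sets were picked by the DMSO values that the term subtracts, so their counts cannot be weighed against the 15.2%.

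Foxp3 lost most of its contrast, with Srci1 libraries at 194, 208 and 209 TPM in TH17 and 257, 279 and 270.1 TPM in Treg cultures, a log2 difference of 0.40 ± 0.10 in place of 3.37 ± 0.10 (interaction -2.98 ± 0.14, limma adjusted p = 1.12e-08). Its levels with Srci1 thus lay above the DMSO Treg level in both cell types. Gzmb kept its direction, at 45.6, 41.3 and 44.2 TPM in TH17 and 470.0, 498 and 462 TPM in Treg cultures, with a smaller difference (3.42 ± 0.06; interaction adjusted p = 4.83e-12). Il17a also kept its direction (-5.18 ± 0.12). The Il3 difference lost its size and changed sign, at 21.1 ± 4.14 TPM in TH17 and 13.1 ± 1.39 TPM in Treg cultures with Srci1 (-0.63 ± 0.26, interaction -5.29 ± 0.37, limma adjusted p = 7.98e-07). No call is given for the Srci1 difference of Il3 alone.

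**Figure D5:**
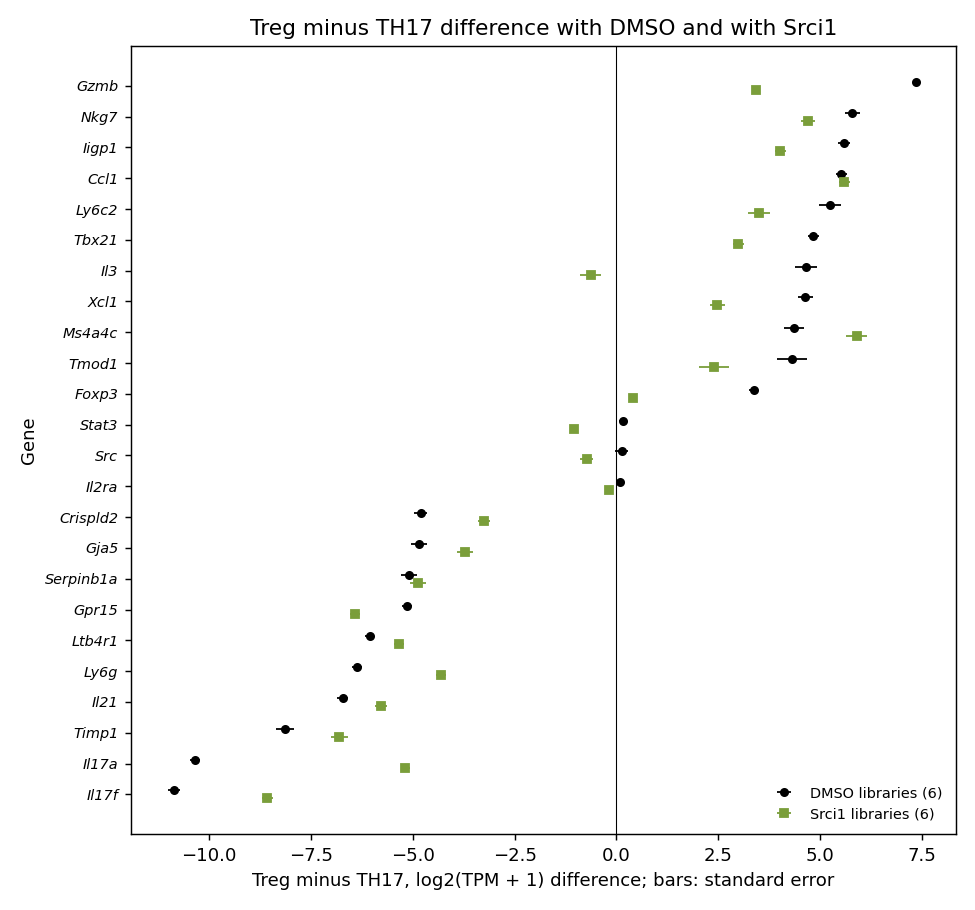
Treg minus TH17 difference in log2(TPM + 1) (x axis) for 24 genes, the fixed set and the largest changes, in 6 DMSO libraries (circles) and 6 Srci1 libraries (squares), with standard errors. Il17a and Il17f stay far left and Gzmb and Nkg7 far right with both, while the Foxp3 and Il3 differences move from 3.37 to 0.40 and from 4.66 to -0.63.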

How the data were processed

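Poly(A) RNA-seq of 15 mouse CD4 T cell libraries was deposited as a table of TPM values with 2 decimals for 55421 Ensembl gene IDs. The submitters' processing notes name RSEM 1.3.3, STAR 2.7.9a and the build GRCm38 without their roles. For annotation release, strand setting and filters the sources used here give nothing, and reads of overlapping or antisense genes cannot be told apart. Groups came from the labels and columns were matched by name. Of the IDs, 55154 had a symbol, and 106 symbols stood for several IDs. Gene positions (1-based) come from GENCODE M21 on GRCm38.

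From the deposited TPM values, log2(TPM + 1) was fitted with limma 3.58.1 (R 4.3.3) and a variance trend. The model had a mean for each of 5 groups over all 15 libraries (10 residual degrees of freedom), and the contrasts were Treg minus TH17 with DMSO, the same with Srci1, and their difference. Genes needed 1 TPM in 3 of the 6 DMSO libraries. P-values were adjusted by Benjamini-Hochberg over 11771 genes and called under 0.05. The fit was tested on simulated data.

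The comparison and the 40 gene lists (575 entries, 517 different genes) were chosen with earlier results of these data known. Named genes were Stat3, Foxp3, Il17a, Il17f, Il2ra and Src (a further gene of this set is not reported here), members of the TH17, Treg, STAT3 and IL-2 lists, up to 4 members of smallest adjusted p in each other list, the 10 largest log2 changes in each direction, and markers of other cells above 5 TPM. The largest changes needed a call, no overlap and a group mean of 5 TPM, and left out unnamed models, pseudogenes, mitochondrial genes and receptor segments. Other genes named, such as further list members, were chosen after their values were seen. Motifs were searched in RefSeq promoter windows (GRCm38.p6, 250 bases before to 50 after a start).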

Additional observations from a re-analysis of the deposited data

Results flagged for a closer look

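The Treg minus TH17 difference changed in size with Srci1 for 21 of the 24 genes of the fixed set and the largest changes, by the interaction term over 12 libraries (limma, adjusted over 11771 genes). Values are the log2 difference with Srci1 minus that with DMSO, and 15.2% of all tested genes were called by this term. The largest changes were picked by the DMSO difference that this term subtracts, which favours a smaller difference with Srci1. The 21 of 24 therefore cannot be weighed against the 15.2%.

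Among TH17 genes that were lower in Treg cultures, the difference shrank with Srci1 by 5.17 for Il17a and 2.29 for Il17f, by 1.35 for Timp1 and 0.95 for Il21, and by 2.06 for Ly6g and 0.73 for Ltb4r1. It also shrank by 1.13 for Gja5 and 1.56 for Crispld2. It widened for Gpr15 (-1.27). With a pseudocount of 0.1 the Il21 value turned to -1.37 and was called in that direction (limma adjusted p = 0.00481). Whether the Il21 difference shrank or widened thus depends on the pseudocount. The Ltb4r1 value turned without a call (-0.50, limma adjusted p = 0.597), and the Timp1, Ly6g, Gpr15 and Gja5 calls ended.

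Among genes that were higher in Treg cultures, the value was -2.98 for Foxp3, -3.93 for Gzmb, -1.09 for Nkg7 and -1.56 for Iigp1. It was -1.74 for Ly6c2, -1.85 for Tbx21, -2.17 for Xcl1 and -1.92 for Tmod1. The Il3 difference went from 4.66 with DMSO to -0.63 with Srci1 (-5.29), and that of Ms4a4c widened (1.54). The Ly6c2 and Tmod1 calls ended with a pseudocount of 0.1, and the Tmod1 call also with no filter on low values (limma adjusted p = 0.0573) and without TH17 DMSO replicate 3, Treg DMSO replicate 3, TH17 Srci1 replicate 2 or Treg Srci1 replicate 3.

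Stat3 and Src did not differ between the cell types by the test with DMSO, and their interaction values were -1.19 (limma adjusted p = 7.69e-05) and -0.86 (adjusted p = 0.0215). Stat3 held 158, 152 and 161 TPM in TH17 and 76.1, 75.2 and 78.3 TPM in Treg libraries with Srci1. The Src call, of a gene near 1 TPM, ended under quantile normalization (-0.64, limma adjusted p = 0.106), and without TH17 Srci1 replicate 2 (limma adjusted p = 0.0502) or replicate 3 (0.0525), Treg DMSO replicate 2 (0.0548) or replicate 3 (0.0543), or Treg Srci1 replicate 3 (0.0559). No sample was tested as an outlier, since each group has 3.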

How the results depend on the processing

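The 6 libraries limit precision, and depth is unknown. Alternatives changed the pseudocount (0.1), the filter (none, with 20951 genes, or 5 TPM, with 9316 genes), the scaling (3 others), the libraries in the model (the 6 alone, or each left out in turn) and the fit (array weights, replicate block). Higher genes, 4091 as reported, numbered 2631 under median-of-ratios scaling and 2685 under quantile normalization, and lower genes, 1541 as reported, numbered 2731 and 2695, both scalings that by construction remove the shift of the median. At least 2-fold higher genes, 1247 as reported, numbered 812 with the filter of 5 TPM, and at least 2-fold lower genes, 535 as reported, numbered 284 with it and 852 with no filter, where fewer or more genes were tested. Leaving out each library gave 3319 to 4461 higher and 1317 to 1593 lower genes, 1058 to 1470 and 515 to 575 of them at least 2-fold. The stated counts stayed within 1.5 times under every other alternative.

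Replicates of equal number did not deviate together (correlations of deviations from the group means of -0.024, -0.032 and -0.054), and the main fit did not pair them. With 3 libraries a group, a shared animal or batch behind equal numbers cannot be told from these values. With the replicate block, 3998 genes were higher and 1508 lower (1243 and 537 at least 2-fold).

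Of 177 tested genes named above, 166 were called, and 157 of these kept their direction and their call under every alternative that tested them. Genes that did not reach the filter of 5 TPM were not tested under it and were not counted as changed there. The other 9 calls ended under at least 1 alternative, and 0 turned. Among genes that did not pass, Stat3 turned to -0.056 and Il2ra to -0.14 under median-of-ratios scaling, and Il2ra ran from -0.049 to 0.18 over libraries left out. Src turned to -0.027 under quantile normalization and -0.055 with array weights. Csf2 turned to -0.14 under median-of-ratios scaling, to -0.16 under quantile normalization and to -4.4e-04 when ribosomal protein and mitochondrial genes were left out before rescaling. Of the interaction values, Ccl1, which did not pass, turned to -1.72 with a pseudocount of 0.1, to -0.052 under quantile normalization and to -0.21 after that rescaling, and ran from -0.099 to 0.19 over libraries left out. With a pseudocount of 0.1, Il21 turned to -1.37, a call in the other direction (limma adjusted p = 0.00481), and Ltb4r1 to -0.50 without a call. Serpinb1a, which did not pass, ran from -0.022 to 0.39 over libraries left out. Leaving out the 6 Srci1 libraries was added after the data were seen. The cause of these changes was not tested.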
